A study of Mus musculus with 4 samples.

Results

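The genes of the unfolded protein response and of the transcription factor ATF4 were followed in cultured mesenchymal cells of the mouse whisker follicle. The set holds 34 genes, taken from the 51826 gene entries of the deposited count table by an exact match of the gene symbol. An ATF4 arm of 18 genes comprised 10 regulators and 8 genes of amino acid and one-carbon metabolism. The group of 10 is called regulators for short. It also holds genes whose products are not regulators, such as Chac1, an enzyme, and Vldlr, a lipoprotein receptor. An endoplasmic reticulum (ER) arm of 16 genes comprised 12 chaperones and folding genes and 4 genes of XBP1 signaling and ER-associated degradation. All 34 genes passed the filter on low values (raw counts that averaged 10 or more per library), as did 16734 genes in total.

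RNA was sequenced from dermal papilla cells (DPCs), the mesenchymal cells at the base of the follicle, and from dermal sheath cells (DSCs), which line its outside. Both were grown out of whisker follicles of C57BL/6J mice that, by the study's methods, carried an EGFP transgene and were 5 to 6 weeks old, while the labels give the genotype as WT. The 4 groups were low-passage DPCs and low-passage DSCs, both at passage 3, and high-passage DPCs and high-passage DSCs, both at passage 9. No drug or stressor is named for any of them, and all were kept in medium with fetal bovine serum. The study compared passages to look for genes behind the lower homing of high-passage cells. Each group was a single library, so that library and group cannot be told apart, and nothing states whether the libraries came from separate animals or cultures.

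ER chaperones bind and fold proteins that enter the secretory pathway, which fibroblast-like cells load with collagen. When unfolded proteins accumulate, the sensors IRE1, ATF6 and PERK respond. IRE1 splices the Xbp1 mRNA and, with ATF6, raises chaperone and degradation genes, whereas PERK phosphorylates the translation factor eIF2. Phosphorylated eIF2 slows protein synthesis in general and lets ATF4 be translated, and the kinase GCN2 does the same when amino acids are short. ATF4 then induces genes that take up and make amino acids, alone or with partners such as CHOP. ATF4 activity is set largely at translation and XBP1 activity by splicing, and gene counts measure neither.

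The promoters of the ATF4 arm and of the ER arm differed in the letters they carried, and the stretches below show the elements that known regulators of each arm bind. Promoter sequences from RefSeq (build GRCm38.p6) were at hand for 31 of the 34 genes, in 34 windows of 250 bases before a start site. The motif TGATGNAA, a composite element bound by ATF4 with a C/EBP partner, was searched on both strands. It was found in 6 of 20 windows of the ATF4 arm (30%) and in 1 of 14 windows of the ER arm, that of Herpud1, beside 3.45% of all 32851 windows. The 6 stretches are printed on the strand of the gene, with each match in capitals. The stretches of Asns, Vldlr and Nupr1 are short because they lie in exons of GENCODE transcripts with a start further upstream.
Slc7a11, chr3:50443614-50443723, minus strand: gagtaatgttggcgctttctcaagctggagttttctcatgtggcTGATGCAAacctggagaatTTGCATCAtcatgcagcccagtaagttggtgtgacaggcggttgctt
Chac1, chr2:119351005-119351100, plus strand: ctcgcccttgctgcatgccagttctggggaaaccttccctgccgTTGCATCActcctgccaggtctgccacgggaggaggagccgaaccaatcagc
Asns, chr6:7693214-7693243, minus strand: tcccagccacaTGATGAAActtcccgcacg
Vldlr, chr19:27216809-27216838, plus strand: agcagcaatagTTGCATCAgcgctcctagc
Atf3, chr1:191183392-191183487, minus strand: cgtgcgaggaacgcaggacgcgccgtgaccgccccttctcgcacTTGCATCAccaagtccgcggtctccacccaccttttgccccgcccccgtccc
Nupr1, chr7:126625562-126625591, minus strand: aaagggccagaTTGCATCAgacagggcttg

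Slc7a11 held 2 matches, in opposite orientations. The match of Asns began 23 bases before its start site. Genes of both directions of change carried the element, as Nupr1 was higher at passage 9 and the others were lower or, for Atf3 in DSCs, within counting error. Trib3, which had the greatest fall of the 34 genes in DPCs, held no match in its window.

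The ER stress response element, CCAAT followed after 9 bases by CCACG, was present in 6 of 14 windows of the ER arm (42.9%) and in 0 of 20 windows of the ATF4 arm, beside 37 of all 32851 windows (0.113%). The 6 genes were all chaperones or folding genes, and they are shown with the CCAAT and CCACG letters, or their complements, in capitals.
Hspa5, chr2:34772020-34772048, plus strand: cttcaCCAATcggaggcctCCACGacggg
Hsp90b1, chr10:86705489-86705694, minus strand: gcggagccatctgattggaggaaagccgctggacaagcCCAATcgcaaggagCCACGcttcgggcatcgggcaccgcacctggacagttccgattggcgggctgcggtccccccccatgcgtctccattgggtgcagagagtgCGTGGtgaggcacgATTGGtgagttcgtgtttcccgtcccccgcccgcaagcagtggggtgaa
Calr, chr8:84847031-84847137, minus strand: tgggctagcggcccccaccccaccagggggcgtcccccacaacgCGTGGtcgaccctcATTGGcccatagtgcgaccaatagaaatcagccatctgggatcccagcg
Canx, chr11:50325756-50325862, minus strand: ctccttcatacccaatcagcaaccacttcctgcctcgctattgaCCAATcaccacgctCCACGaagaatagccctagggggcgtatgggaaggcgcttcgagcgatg
Creld2, chr15:88819476-88819582, plus strand: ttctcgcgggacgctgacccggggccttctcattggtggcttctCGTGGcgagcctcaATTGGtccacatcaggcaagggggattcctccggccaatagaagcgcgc
Pdia6, chr12:17266447-17266553, plus strand: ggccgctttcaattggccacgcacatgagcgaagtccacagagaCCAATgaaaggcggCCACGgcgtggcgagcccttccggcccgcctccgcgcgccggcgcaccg

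Hsp90b1 held the element on each strand, while the other 5 genes held it once. The stretch of Hspa5 is short for the same reason as that of Asns. The shorter motif CCACG, which is part of the ER stress response element, was present in 78.6% of ER arm windows, 45% of ATF4 arm windows and 28.3% of all windows. A further element of the unfolded protein response, TGACGTGG, which contains CCACG on its other strand, was found in 0.563% of all windows and in none of the 34 member windows. Dnajb9 and Sdf2l1, the only ER arm genes past 2-fold in either cell type, held CCACG but not the longer element. A match of letters is a description of these windows and not a binding site.

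The total count was between 34981284 and 47604059 per library. Even counts were in excess in all libraries (2 counts for 1339 genes and 3 counts for 583 in the DPC library at passage 3), a pattern that counting each mate of a pair would leave. Intervals given below are 95% counting intervals that compare 2 libraries, take each count as independent and cover counting error only. They are too narrow if both mates of a pair were counted. With all counts halved, the interval of the log2 passage change of Slc7a11 in DPCs was -4.52 to -3.05, where that printed below is -4.27 to -3.25. Of the 34 genes, 33 had an interval of the passage change that excluded 0 in DPCs and 30 in DSCs, and 31 and 28 with all counts halved. Of 9 keratinocyte markers, 5 (Krt5, Krt14, Krt15, Cdh1, Dsg3) were at 0 in every library, Krt17 and Epcam had 4 counts in 1 library each, and Krt10 had 33 to 61 counts and Trp63 10 to 35. Of 5 melanocyte markers, 4 (Mlana, Dct, Tyr, Tyrp1) were at 0 in every library and Pmel had 17 to 47 counts. The summed level of 7 mesenchymal markers was 18710, 7311, 27561 and 22677 CPM (counts scaled to a common library size) in low- and high-passage DPCs and low- and high-passage DSCs, in that order, which is also the order of all values below. Of these mesenchymal markers, Pdgfra was higher at passage 9 in both cell types. Col3a1 and Thy1 were lower in DPCs and higher in DSCs, and the others were lower in both. The 9 papilla and sheath markers summed to 7582, 3028, 6233 and 5254 CPM, most of it from Acta2. They moved in different directions, as Lef1 had 508, 2, 101 and 55 counts, Sox2 1677, 1491, 269 and 178, Rspo3 70, 196, 60 and 99, and Itga8 6837, 34714, 1674 and 23287, while Alpl had 6 to 23 and Lepr 0 to 18. Ncam1 had 3642, 1673, 11755 and 15584 counts, Vcan 4134, 3447, 5272 and 2913, and Acta2 262118, 67135, 217199 and 197315. Summed markers of immune cells, among them Lyz2, went from 115 to 60.1 CPM in DPCs and from 159 to 90.5 CPM in DSCs, those of Schwann cells from 11.2 to 3.65 and from 28.0 to 5.09 CPM, and those of endothelial cells from 2.42 to 0.11 and from 5.48 to 0.99 CPM. Of 5 skeletal muscle markers, the actin gene Acta1 went from 40.6 to 0.36 CPM in DPCs and from 48.4 to 23.8 CPM in DSCs, Myod1, Ckm and Pax7 were at 0 in every library and Myog had 2 counts in 1 library. The part of these changes in the results was not tested. In such bulk samples, fewer cells of a type and less RNA per cell cannot be told apart.

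The ATF4 arm was lower at passage 9, above all in DPCs, while the ER arm stayed near its level at passage 3. In DPCs, 11 of the 18 ATF4 arm genes were at least 2-fold lower and 2 were at least 2-fold higher, where 15.0% of all genes tested were lower and 16.1% higher by that measure. In DSCs, 4 genes were lower and 1 was higher, beside 6.21% and 8.55% of all genes. The median log2 change of the arm was -1.27 in DPCs and -0.61 in DSCs, and the median of all genes was 0.03 and 0.00. In both cell types together, 4 genes (Trib3, Chac1, Phgdh and Slc7a11) were at least 2-fold lower, as were 3.54% of all genes, and 1 (Nupr1) was at least 2-fold higher, as were 4.86%. Below 0 in both were 15 of the 18 genes. Taken singly, 15 were below 0 in DPCs and 17 in DSCs, beside 8119 and 8321 of the 16734 genes tested. The counting interval of the difference between the cell types lay below 0, toward the greater fall in DPCs, for 12 of the 18 and above 0 for 4. In the ER arm it lay below 0 for 4 of the 16 genes and above 0 for 9. It was not computed over all genes, of which more passed 2-fold in DPCs than in DSCs in both directions.

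**Figure D1:**
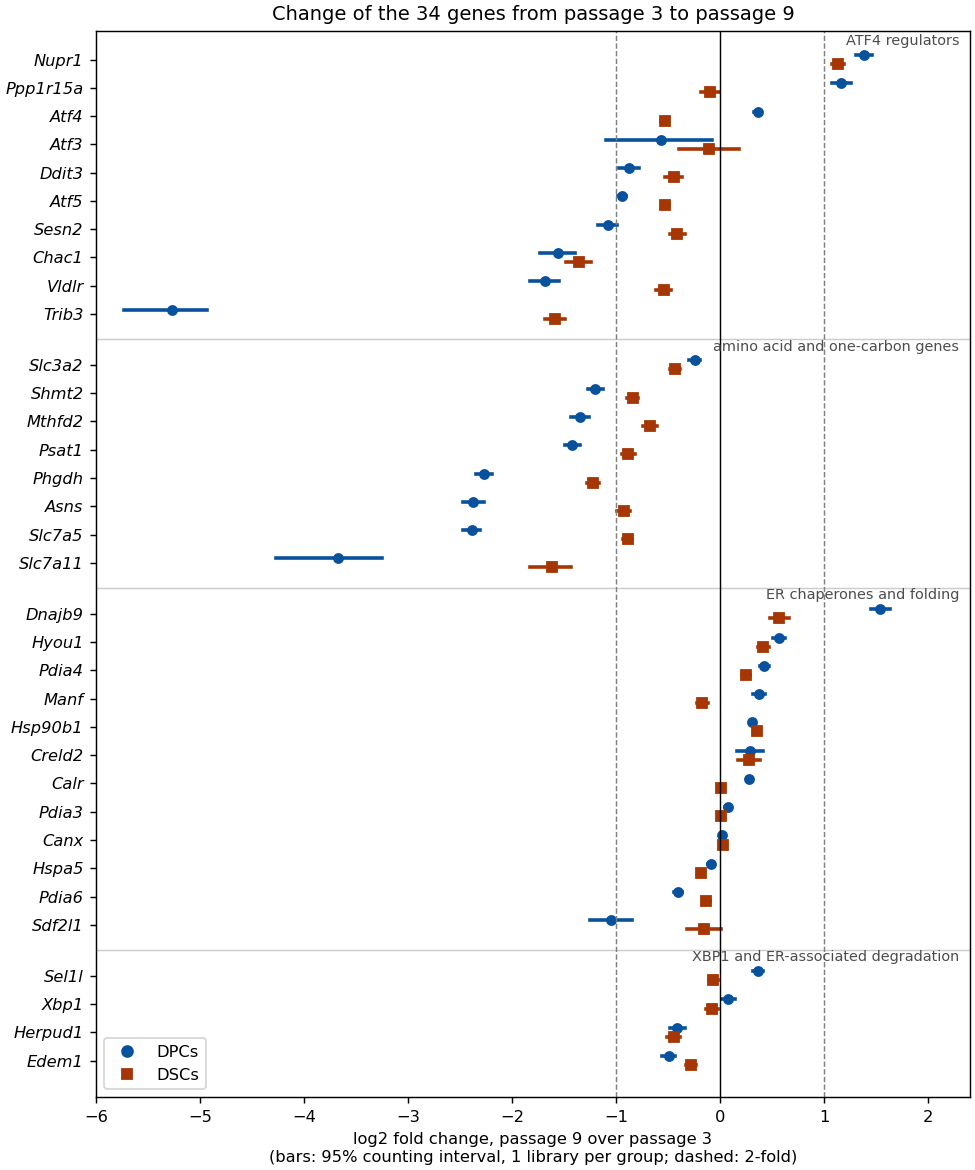
The log2 fold change from passage 3 to passage 9 is plotted for each of the 34 genes, with circles for DPCs, squares for DSCs and bars for the 95% counting interval of 1 library against another. The amino acid and one-carbon genes all lie left of 0 in both cell types, whereas the ER genes lie between the dashed 2-fold lines except Dnajb9 (1.54) and Sdf2l1 (-1.05) in DPCs.

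All 8 genes of amino acid and one-carbon metabolism had a lower level at passage 9 in both cell types. Of the 16734 genes tested, 8119 were lower in DPCs and 8321 in DSCs. The summed level of the 8 genes went from 1138 to 423 CPM in DPCs and from 1361 to 765 CPM in DSCs. At least 2-fold lower were 7 of the 8 in DPCs and 2 of the 8 (Phgdh and Slc7a11) in DSCs. The group's median log2 change was -1.84 in DPCs and -0.89 in DSCs. Of the 8 genes, 7 had the greater fall in DPCs, each with a counting interval of the difference below 0, and Slc3a2 was the exception. As for the whole arm, that interval was not computed over all genes.

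Slc7a11 (chr3:49892526-50443614, minus strand) encodes the light chain of the transporter that imports cystine in exchange for glutamate. Its level was 13.4, 1.00, 19.3 and 6.23 CPM, from 493, 36, 731 and 284 counts. High-passage DPCs stood lowest, with a log2 change of -3.67 (95% counting interval -4.27 to -3.25), or 12.8-fold lower than at passage 3. In DSCs it was 3.08-fold lower, with a log2 change of -1.62 (-1.83 to -1.43).

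Phgdh (chr3:98313170-98339990, minus strand) encodes the enzyme that commits glycolytic carbon to serine synthesis. It measured 205 CPM in low-passage DPCs, 42.6 CPM in high-passage DPCs, 218 CPM in low-passage DSCs and 93.4 CPM in high-passage DSCs. The fall was 4.82-fold in DPCs, a log2 change of -2.27 (-2.35 to -2.19), and 2.33-fold in DSCs, a log2 change of -1.22 (-1.28 to -1.17). Both low-passage libraries stood above both high-passage libraries. Of the 50-base stretches of its transcripts, 47.8% also occur in other annotated genes, so that its reads may be shared and its values are uncertain. Psat1 (chr19:15904678-15947337, minus strand), the aminotransferase that acts next in that pathway, had 147, 54.9, 142 and 77.0 CPM. Its log2 change was -1.42 in DPCs and -0.88 in DSCs.

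Asns (chr6:7675169-7693254, minus strand) encodes asparagine synthetase, a standard readout of ATF4. Its level was 135, 26.1, 142 and 74.7 CPM. The change was 5.18-fold lower in DPCs, at a log2 value of -2.37 (-2.48 to -2.27), against -0.93 (-0.99 to -0.87) in DSCs. The libraries at passage 3 differed little from each other, and high-passage DPCs stood apart from the rest.

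Slc7a5 (chr8:121881150-121907694, minus strand) encodes the light chain of the carrier of leucine and other large neutral amino acids. It was at 200.0, 38.2, 296 and 160 CPM, and was 5.23-fold lower at passage 9 in DPCs and 1.85-fold lower in DSCs. Its log2 change was -2.39 (-2.47 to -2.30) in DPCs and -0.89 (-0.93 to -0.85) in DSCs. Slc3a2, the heavy chain that both Slc7a5 and Slc7a11 pair with, had log2 changes of -0.24 and -0.43. On the FPKM scale (fragments scaled by transcript length and library depth), the level of Slc7a5 per Slc3a2 was 0.565, 0.128, 0.638 and 0.461. That of Slc7a11 per Slc3a2 was 0.0148, 0.00126, 0.0159 and 0.0070. The light chains thus lost ground to their common heavy chain in both cell types, furthest in DPCs.

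The mitochondrial enzymes of the folate cycle were lower as well. Shmt2 (chr10:127517123-127522444, minus strand), which passes the carbon of serine to folate, was at 153, 66.6, 197 and 110 CPM, a log2 change of -1.20 in DPCs and -0.84 in DSCs. Mthfd2 (chr6:83305691-83325908, minus strand), which oxidizes the folate-bound carbon, was at 102, 40.0, 107 and 67.2 CPM, a log2 change of -1.35 and -0.67. Both genes passed 2-fold in DPCs alone, and the counting interval of the difference between cell types lay below 0 for each (-0.36, from -0.44 to -0.27, for Shmt2 and -0.67, from -0.78 to -0.56, for Mthfd2).

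**Figure D2:**
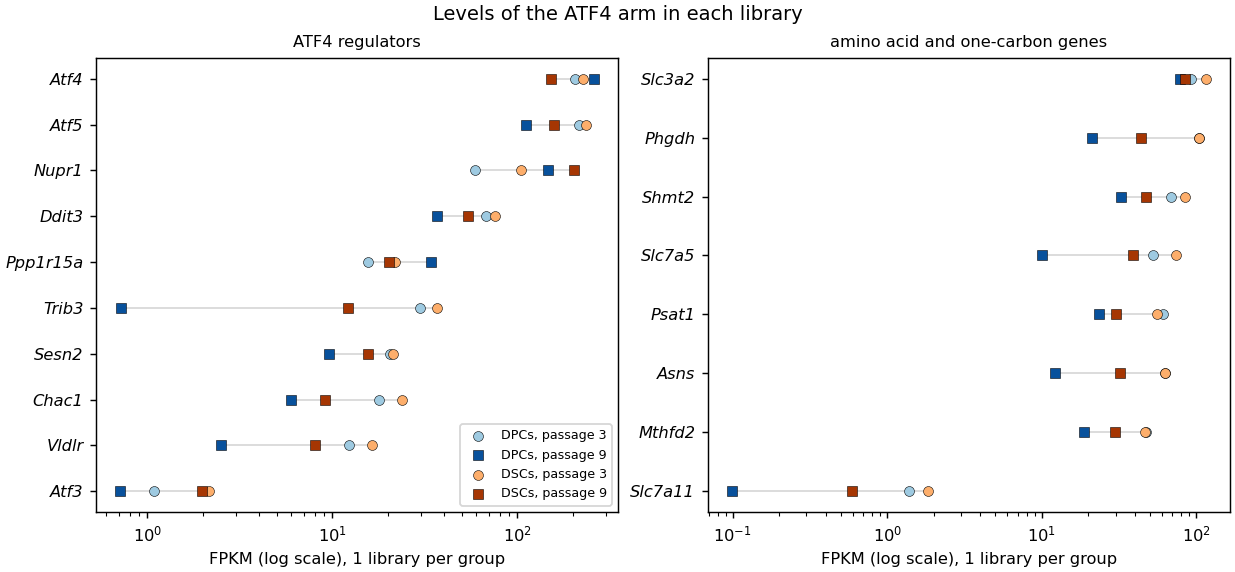
FPKM (log scale) of the 10 regulators and the 8 amino acid and one-carbon genes, with 1 point per library, light circles for passage 3 and dark squares for passage 9 (blue DPCs, orange DSCs). High-passage DPCs hold the lowest value of all 8 metabolic genes, as low as 0.10 FPKM for Slc7a11, while Atf4 and Ppp1r15a are highest there, at 260 and 34.2 FPKM.

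The regulators of the ATF4 arm held genes past 2-fold in both directions. Of the 10 genes, 4 were at least 2-fold lower in DPCs (Trib3, Vldlr, Chac1 and Sesn2) and 2 were at least 2-fold higher (Nupr1 and Ppp1r15a), beside 15.0% and 16.1% of all genes. In DSCs, 2 were lower (Trib3 and Chac1) and 1 was higher (Nupr1), beside 6.21% and 8.55%, so that the counts of higher genes were near those of all genes. The median log2 change was -0.91 and -0.49. Atf4 itself (chr15:80255184-80257540, plus strand), the gene of the transcription factor, was at 382, 490, 448 and 310 CPM. Its log2 change was 0.36 (0.33 to 0.39) in DPCs and -0.53 (-0.57 to -0.50) in DSCs, so that the Atf4 mRNA was highest in the library with the lowest level of all 8 metabolic genes.

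Trib3 (chr2:152337422-152344032, minus strand) encodes a pseudokinase that is induced by ATF4 and CHOP and restrains them in turn. It was at 62.3, 1.56, 82.5 and 27.4 CPM, from 2294, 56, 3130 and 1249 counts. In DPCs it was 38.7-fold lower at passage 9, a log2 change of -5.27 (-5.73 to -4.94), and in DSCs 3.01-fold lower, a log2 change of -1.59 (-1.69 to -1.50). The difference between the cell types was -3.69 on the log2 scale (-4.08 to -3.29). In FPKM, Trib3 was at 0.146, 0.00278, 0.163 and 0.0795 of the level of Atf4, while the same ratio for Asns was 0.309, 0.0465, 0.278 and 0.211.

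Chac1 (chr2:119351229-119354381, plus strand), an enzyme that degrades glutathione, was at 31.9, 10.8, 45.0 and 17.5 CPM. Its log2 change was -1.56 (-1.74 to -1.40) in DPCs and -1.36 (-1.49 to -1.24) in DSCs. The interval of the difference, -0.41 to 0.00, included 0.

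Vldlr (chr19:27216484-27254231, plus strand), a lipoprotein receptor that ATF4 induces under ER stress, was at 51.2, 15.9, 88.6 and 60.8 CPM, a log2 change of -1.68 in DPCs and -0.54 in DSCs. From the deposited FPKM with a pseudocount of 0.1, these changes were -2.25 and -1.01. Sesn2 (chr4:132492032-132510501, minus strand), which restrains mTORC1 when leucine is short, was at 77.2, 36.4, 84.7 and 63.7 CPM, with log2 changes of -1.08 and -0.41. All 4 of these genes (Trib3, Chac1, Vldlr and Sesn2) were lowest in high-passage DPCs.

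Nupr1 (chr7:126623249-126630861, minus strand), a small stress-induced chromatin protein, went the other way. Its level was 52.5, 137, 93.0 and 204 CPM, 2.61-fold higher at passage 9 in DPCs and 2.20-fold higher in DSCs. The log2 change was 1.38 (1.31 to 1.46) and 1.14 (1.08 to 1.19), though from FPKM with a pseudocount of 0.1 the change in DSCs was 0.95, short of 2-fold. Both high-passage libraries lay above both low-passage libraries.

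Ppp1r15a (chr7:45522916-45526268, minus strand) encodes GADD34, the phosphatase subunit that removes the phosphate from eIF2 and so closes the loop of the response. It was at 38.3, 85.9, 57.7 and 53.9 CPM. The log2 change was 1.16 (1.07 to 1.26) in DPCs and -0.10 (-0.18 to -0.01) in DSCs, and only the DPC change passed 2-fold. Ddit3, the gene of CHOP, had a log2 change of -0.87 and -0.45. The FPKM of Ppp1r15a per that of Ddit3 was 0.231, 0.926, 0.289 and 0.374, highest in high-passage DPCs. The other regulators were Atf5, with log2 changes of -0.94 and -0.53, and Atf3, which had 86, 56, 188 and 210 counts and an interval in DSCs (-0.40 to 0.19) that included 0.

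The ER arm was close to level across passages. Its summed level was 6004, 6653, 6077 and 6304 CPM. In DPCs, 1 of the 16 genes was at least 2-fold higher (Dnajb9) and 1 at least 2-fold lower (Sdf2l1), beside 16.1% and 15.0% of all genes, and in DSCs none of the 16 passed 2-fold in either direction. The median log2 change was 0.18 in DPCs and -0.03 in DSCs. The 12 chaperones and folding genes had medians of 0.29 and 0.02, and the 4 genes of XBP1 and degradation had medians of -0.17 and -0.18.

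Among the abundant chaperones, Hspa5, the gene of BiP and the usual readout of ER stress, was at 732, 689, 410 and 361 CPM. Its log2 change was -0.09 (-0.11 to -0.06) in DPCs and -0.18 (-0.21 to -0.15) in DSCs. Hsp90b1, which encodes GRP94, had log2 changes of 0.30 and 0.35, with 9.75% of its 50-base stretches shared with other genes and parts overlapped by other genes. The lectin chaperones of glycoproteins, Calr and Canx, had changes of 0.28 and 0.02 in DPCs, and of 0.01 and 0.03 in DSCs. The disulfide isomerases Pdia3, Pdia4 and Pdia6 were at 0.07, 0.43 and -0.40 in DPCs, and at 0.01, 0.25 and -0.13 in DSCs. Hyou1, an ER chaperone that exchanges the nucleotide of BiP, had changes of 0.57 and 0.41, and Creld2 of 0.29 and 0.28. The values in DSCs of Pdia3, Calr and Canx changed sign with total-count scaling and with FPKM.

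Dnajb9 (chr12:44205559-44210326, minus strand) encodes ERdj4, a co-chaperone of BiP that is a known target of XBP1. It was at 36.1, 105, 40.4 and 60.0 CPM, 2.91-fold higher at passage 9 in DPCs and 1.48-fold higher in DSCs. The log2 change was 1.54 (1.45 to 1.63) and 0.57 (0.48 to 0.66). Sdf2l1 (chr16:17130138-17132383, minus strand), a component of ER chaperone complexes, was at 17.3, 8.36, 15.5 and 14.0 CPM. Its log2 change was -1.05 (-1.25 to -0.85) in DPCs and -0.15 (-0.32 to 0.01) in DSCs. The 2 genes, both low among the chaperones in FPKM, thus went in opposite directions in DPCs.

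Xbp1, whose mRNA is the substrate of IRE1, had log2 changes of 0.08 and -0.08, and the counts do not tell its spliced form. The degradation genes Herpud1 and Edem1 had changes of -0.41 and -0.50 in DPCs and of -0.45 and -0.28 in DSCs. Sel1l, the adaptor of the ubiquitin ligase of the ER membrane, had a change of 0.37 in DPCs and of -0.06 in DSCs. Manf, a secreted protein that is retained by BiP, had a change of 0.37 in DPCs and of -0.17 in DSCs, and the latter was 0.21 from FPKM with a pseudocount of 0.1. Of Manf, 8.85% of the exonic length overlaps genes on the other strand, and the use of strand in the counting is not given in the sources used here.

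**Figure D3:**
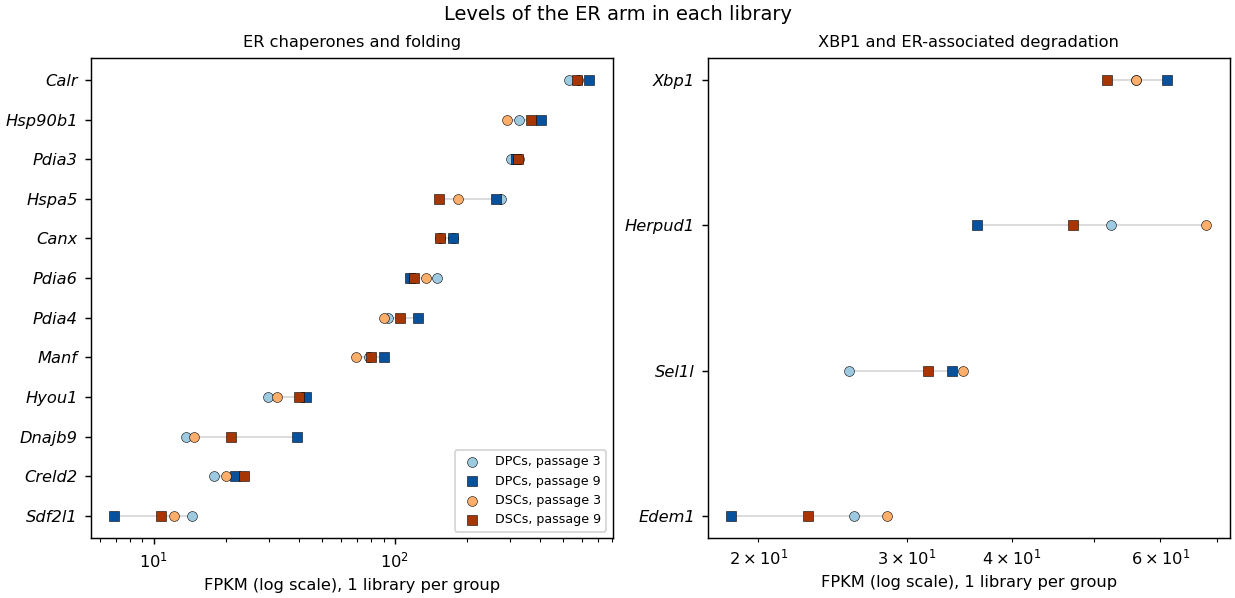
FPKM (log scale) of the 12 chaperones and folding genes and of the 4 genes of XBP1 and degradation, with 1 point per library, light circles for passage 3 and dark squares for passage 9 (blue DPCs, orange DSCs). The 4 points of most genes lie close together, from 529 to 639 FPKM for Calr, and the widest spreads belong to Dnajb9 (13.7 to 39.3) and Sdf2l1 (6.88 to 14.4).

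More genes of the ATF4 arm differed between the cell types by 2-fold at passage 9 than at passage 3. At passage 3, 1 of the 18 genes was at least 2-fold lower in DPCs than in DSCs (Atf3, log2 difference -1.07) and none was higher, where 7.86% of all genes tested were lower and 5.43% higher. That call was lost with total counts and with FPKM. Below 0 at passage 3 were 17 of the 18 genes and 11 of the 16 ER arm genes, beside 8277 of the 16734 genes tested. By FPKM, Asns (63.1 in DPCs and 62.6 in DSCs) and Mthfd2 (47.3 and 46.6) were instead higher in DPCs at passage 3. At passage 9, 7 of the 18 ATF4 arm genes were lower and none was higher, beside 11.0% and 9.11% of all genes. These 7 were Trib3 (log2 difference -4.09), Slc7a11 (-2.58), Slc7a5 (-2.06), Vldlr (-1.93), Atf3 (-1.53), Asns (-1.52) and Phgdh (-1.13). With FPKM and a pseudocount of 1 the count was 5, as Slc7a11 (-0.53) and Atf3 (-0.79) fell short. The median difference of the arm went from -0.38 to -0.73. The passage and cell type contrasts share their libraries and are not independent of each other. In the ER arm none of the 16 genes passed 2-fold at either passage, and the nearest was Hspa5, higher in DPCs by 0.84 at passage 3 and 0.93 at passage 9.

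**Figure D4:**
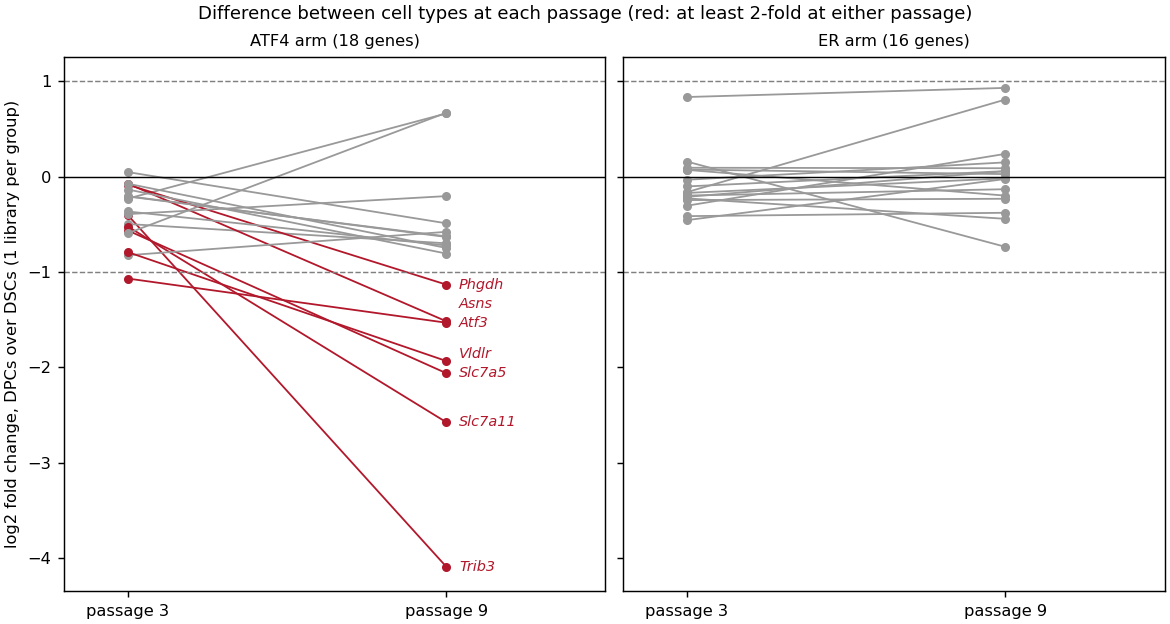
The log2 difference of DPCs over DSCs at passage 3 and at passage 9 is joined by a line for each gene of the ATF4 arm (left) and the ER arm (right), with red lines for genes past 2-fold (dashed) at either passage. The 7 named genes end below the dashed line, down to -4.09 for Trib3, while no ER gene crosses either dashed line.

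A model with cell type and passage as additive terms gave the only test of a passage effect shared by both cell types. It left 1 residual degree of freedom, which reflects the gap between the changes of DPCs and DSCs, since no culture was replicated. With edgeR's quasi-likelihood test, 0 of the 34 genes and 0.0% of all 16734 genes passed a Benjamini-Hochberg adjusted p of 0.05, and the smallest adjusted p among the 34 was 0.188. At an unadjusted p under 0.05 by that test were 15 of the 34 genes (13 lower and 2 higher), beside 2822 genes in all (16.9%). DESeq2's Wald test, the alternative, called 10 of the 34 genes, 9 lower and 1 higher (Nupr1), where it called 2.88% of all genes lower and 3.18% higher. The 9 were Trib3, Chac1 and 7 of the 8 metabolic genes, all but Slc3a2. Without the filter on low counts, DESeq2 called 8 of the 34, losing Trib3 and Mthfd2. No ER arm gene was among the calls of either tool. At the study's own threshold of 4-fold, 5 ATF4 arm genes were lower in DPCs (Trib3, Slc7a11, Slc7a5, Asns and Phgdh), beside 4.36% of all genes, and none in DSCs. The study stated its 4-fold change for high-passage DPCs/DSCs jointly, whereas the counts here take each cell type singly.

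Genes of the same pathways outside the 34 are counted here against the shares of all genes given above, 15.0% lower and 16.1% higher by 2-fold in DPCs, and 6.21% and 8.55% in DSCs. Of 26 further ATF4 targets, 12 were at least 2-fold lower and 1 higher in DPCs, and 5 were lower and 2 higher in DSCs, with medians of -0.91 and -0.41. The counts of lower genes were above those shares, and those of higher genes were not. Past 2-fold in both cell types were Cth, which makes cysteine (-3.32 and -1.24), Shmt1 (-1.87 and -1.03) and Aldh1l2 (-1.39 and -1.01), both of folate metabolism, and in the other direction Stc2, which encodes a secreted glycoprotein (4.37 and 1.80). Of 20 aminoacyl-tRNA synthetases, which charge tRNAs and are in part under ATF4, 18 were below 0 in both cell types. Taken singly, 19 were below 0 in DPCs and 18 in DSCs, beside 8119 and 8321 of the 16734 genes tested. Of the 20, 7 were at least 2-fold lower in DPCs and none in DSCs, with medians of -0.75 and -0.52. Of 9 genes of the mitochondrial unfolded protein response, 2 were at least 2-fold lower in DPCs and none in DSCs, near the shares of all genes, and the medians were -0.75 and -0.25.

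The sensors of stress had medians above 0. Of 12 genes of stress sensors and eIF2 control, 2 in DPCs and 1 in DSCs were higher by 2-fold or more, none was lower, and the medians were 0.63 and 0.08. The counts of higher genes were near the shares of all genes. Ern1, the gene of IRE1, passed 2-fold in both (1.40 and 1.08). Further ER folding genes (35) had medians of -0.11 and 0.11, with 1 higher and 3 lower by 2-fold in DPCs and none in DSCs. Further ER-associated degradation genes (20) had medians of 0.43 and 0.15, with 3 higher in DPCs, near the share of all genes, and none in DSCs.

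Of 14 genes of collagen folding and hydroxylation, 3 were higher and 1 was lower by 2-fold in DPCs, and 1 was higher and 1 lower in DSCs, counts near the shares of all genes. The gene that was lower in both was Serpinh1, the collagen chaperone HSP47 (-1.75 and -1.56). Of 18 cytosolic heat shock genes, 5 in DPCs and 4 in DSCs were higher by 2-fold or more, and none was lower, beside 16.1% and 8.55% of all genes. The 4 past 2-fold in both were Hspa4l (2.96 and 1.57), Hspa1b (1.87 and 1.54), Hspa1a (1.73 and 1.33) and Hsph1 (2.78 and 1.15), of which Hspa1a and Hspa1b are near-identical copies whose reads cannot be safely separated. Genes of proliferation moved with passage as well, since 17 of 18 were at least 2-fold lower in DPCs and 11 in DSCs, beside 15.0% and 6.21% of all genes, with medians of -2.57 and -1.28, among them Ccna2 (-3.24 and -1.93) and Birc5 (-2.96 and -1.82). Their part in the lower ATF4 arm was not tested.

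**Figure D5:**
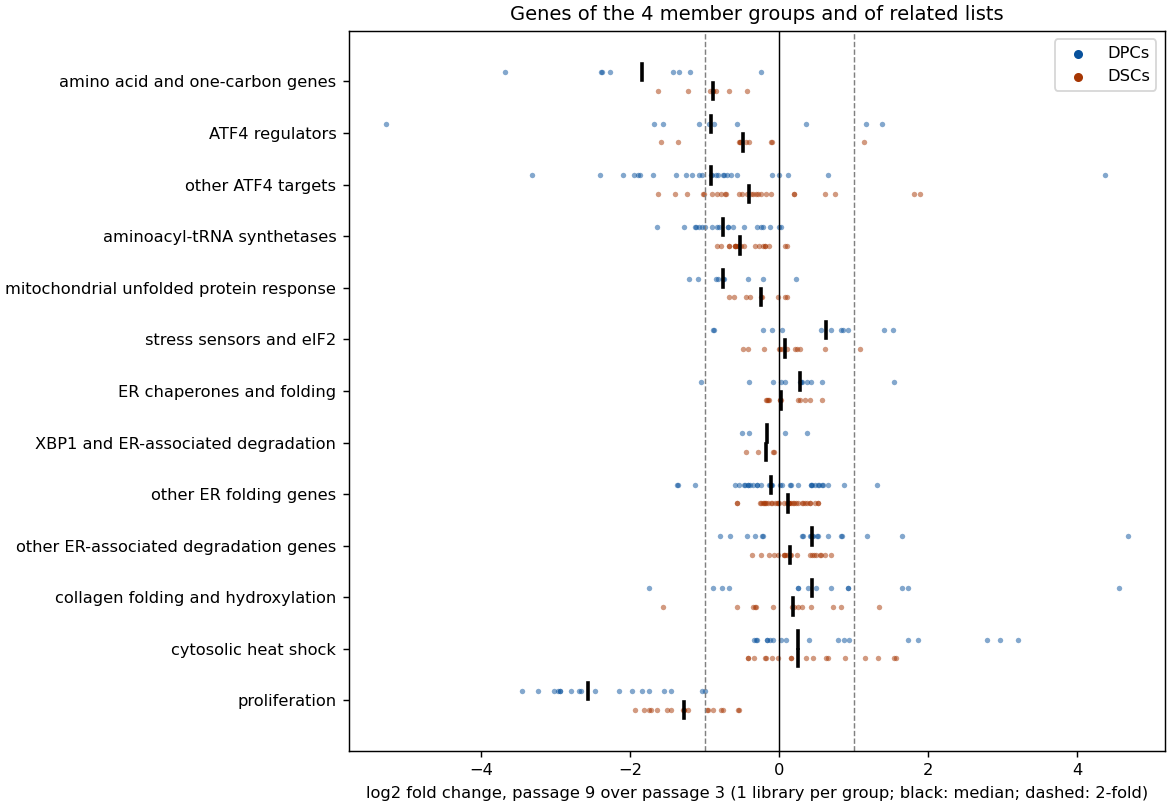
The log2 change from passage 3 to passage 9 of every tested gene is shown for the 4 groups of the 34 genes and for 9 related lists, with blue points for DPCs, orange points for DSCs and a black bar for the median. ATF4 targets, tRNA synthetases and proliferation genes have their medians below 0 in both cell types, proliferation genes furthest (-2.57 and -1.28), while the ER chaperones have theirs at 0.29 and 0.02.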

How the data were processed

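The authors deposited raw counts per gene, which were not normalized, and FPKM per library, normalized for transcript length and depth. Paired-end reads came from poly-T-selected RNA. The submitters' processing notes name Bowtie 0.12.2 and builds mm8 and mm9 without a role, but positions matched GENCODE M21 (GRCm38) for 94.1% of 51633 gene IDs and for 32 of the 34 genes, so those are given. The counting program and use of strand are not given in the sources used here. The genes and lists were chosen with earlier results of these data known.

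Counts were TMM-scaled with edgeR 4.0.16 under R 4.3.3, genes averaging under 10 counts were dropped, and changes were taken on log2 CPM (prior count 2). With 1 library per group, comparisons of groups have no p-value, and called means at least 2-fold. Intervals are Clopper-Pearson intervals of a library's share of the counts of 2 libraries, or Poisson approximations for differences of changes. The additive model used edgeR and DESeq2 1.42.0 (15760 genes with an adjusted p), tested on simulated data. Members past 2-fold in either cell type are given in every library, and genes of other lists are named where both cell types passed 2-fold, at most 4 a list. Alternatives were other scalings, prior counts, filters, FPKM, a 4-fold threshold and halved counts.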

Additional observations from a re-analysis of the deposited data

Results flagged for a closer look

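Each of the 3 genes named here had a passage change of opposite sign in DPCs and DSCs, with counting intervals on opposite sides of 0, also when all counts were halved. Each group was 1 library, and the differences were not tested. Atf4 was 0.36 higher on the log2 scale at passage 9 in DPCs and at -0.53 in DSCs, a difference of 0.893 (0.85 to 0.94). Manf had changes of 0.37 and -0.17, a difference of 0.544 (0.46 to 0.62), and from FPKM with a pseudocount of 0.1 its change in DSCs was 0.21, so that the opposite signs did not hold there. Sel1l had changes of 0.37 and -0.06, a difference of 0.431 (0.36 to 0.50). None of the 6 changes reached 2-fold.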

How the results depend on the processing

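No pairing by animal or culture was possible, since nothing states which libraries share one. The additive model, with cell type as a term, was the only analysis that joined the passage changes of both cell types. No library could be left out because each group was 1 library. All 15 genes past 2-fold in DPCs kept it under the scalings by DESeq2 size factors, total counts and upper quartile, with prior counts of 0.5 and 10 and with FPKM and a pseudocount of 0.1, and 14 of 15 with a pseudocount of 1, where Sdf2l1 fell short and the count of lower ER arm genes was 0. In DSCs all 5 kept it under those scalings and prior counts, 4 with FPKM and a pseudocount of 0.1 (Nupr1 lost, Vldlr gained) and 3 with a pseudocount of 1 (Slc7a11 and Nupr1 lost), so that the count of higher ATF4 arm genes was 0 with either pseudocount. The lower call of Atf3 in DPCs against DSCs at passage 3 was lost with total counts and with FPKM, leaving 0, and total counts added 1 ER arm gene, Hspa5, to those higher in DPCs at passage 9. At 4-fold, the ATF4 arm counts in DPCs were 5 lower and 0 higher, those in DSCs 0 and 0, those of DPCs below DSCs 0 at passage 3 and 3 at passage 9, and the ER arm counts in DPCs 0 and 0. Dropping the filter on low counts, or raising it to 100, left the 2-fold counts of both arms as they were. DESeq2 called 10 of the 34 genes for passage, or 8 without the filter, where edgeR called 0 with and without it. No passage change or cell type difference past 2-fold reversed under any of these scalings, prior counts or FPKM settings. Passage changes short of 2-fold that did are named above. Cell type differences short of 2-fold also changed sign by FPKM. Among them were those of Asns, Mthfd2, Pdia4 and Manf at passage 3 and of Sel1l and Hyou1 at passage 9. The median change of all genes moved by at most 0.10 on the log2 scale. The causes were not tested. Without replicate libraries, the spread between cultures is unknown for every value given, and low counts (36 for Slc7a11 and 56 for Trib3 and Atf3 in high-passage DPCs) widen the counting interval.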
